A study of Homo sapiens with 8 samples.

Results

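The genes described here are 10 members of the tumour necrosis factor (TNF) superfamily and its receptors that T cells can use: TNFSF8 and its receptor TNFRSF8, LTB, LTA, TNF, TNFSF4, TNFSF10, TNFSF13B, FASLG and CD70. They were measured by every probe set, a group of short array probes read as 1 value, whose single gene symbol in the platform annotation was one of these names. All 10 genes, of 19775 that had such a probe set, were found, with 17 of the 54613 probe sets tested. The group was selected on the differences of TNFSF8 and LTB between 10 h, 2 h and 0 h of hormone on these same arrays, and so the members' values at the 3 times are a description with no test. Where a member is said to be called, meaning an adjusted p below 0.05 over all probe sets, that too only describes these arrays and supports nothing.

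The cells were CCRF-CEM-C7-14, a clone of a line from a human T-cell leukaemia (acute lymphoblastic) that responds to glucocorticoids, so every array stems from a single clone. Total RNA was measured on 8 single-colour arrays: 3 of untreated cells (0 h) and, with 1 µM dexamethasone added, 3 taken at 2 h and 2 taken at 10 h. Dexamethasone is a synthetic glucocorticoid that activates the glucocorticoid receptor. All cells, the untreated ones included, had been moved to medium whose serum was charcoal-stripped to remove steroids. No array of cells kept for 2 h or 10 h without hormone was used here, so hormone and time cannot be told apart. The labels call them biological replicates without saying whether cultures were separate, so errors measure the spread between these samples, which may be technical.

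TNF superfamily ligands are mostly membrane proteins that act as trimers on neighbouring cells, and several are also shed or secreted. Their receptors recruit TRAF adaptors and switch on NF-κB and MAP kinases, and those with a death domain can start apoptosis. In lymphocytes these ligands shape activation, survival and the building of lymphoid tissue, and glucocorticoids are long known to hold back many inflammatory cytokines of T cells.

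Values are log2 expression, so a difference of 1 is a doubling, and a level can be set only against other levels of its own probe set. The 27 Bacillus probe sets, which have no target in human RNA, reached at most 4.73, and 11 of the 17 member probe sets had a mean above that value. Array medians ran from 4.68 to 5.01, and 0 h replicate 2, 2 h replicate 3 and 10 h replicate 1 had the lowest medians. Where those 3 arrays are left out below, 10 h replicate 2 is the only array left at 10 h. Genes picked to check the hormone response were higher at 2 h and 10 h, though hormone and time were not separated for them either. TSC22D3, the glucocorticoid-induced leucine zipper, had means of 5.64, 8.42 and 9.94 at 0, 2 and 10 h. FKBP5, a receptor co-chaperone, had 10.38, 11.11 and 12.54. Of 9 measured T-lineage markers, 8 had a mean above 4.73 (CD3D, CD3E, CD3G, CD5, CD7, CD28, LCK and ZAP70), and CD2 lay at 4.72. Of the other markers above it, 3 of 4 were of B cells (CD79A, CD79B and CD22), 2 of 5 of myeloid cells, 2 of 5 of natural killer cells and 4 of 4 of stroma and epithelium, so that value separates probe sets from negative controls and does not by itself mark a cell type. Summed log2 levels of the B-cell markers ran from 23.3 to 24.5 at 0 h and 24.3 to 24.5 at 10 h, those of myeloid markers from 20.2 to 21.4 and 20.2 to 20.9, and those of natural killer markers from 22.5 to 23.7 and 23.7 to 24.7. No marker was called at 2 h or 10 h, and the part of other cells in the results below was not tested. In such bulk RNA, fewer cells with a transcript and less transcript per cell cannot be told apart.

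**Figure D1:**
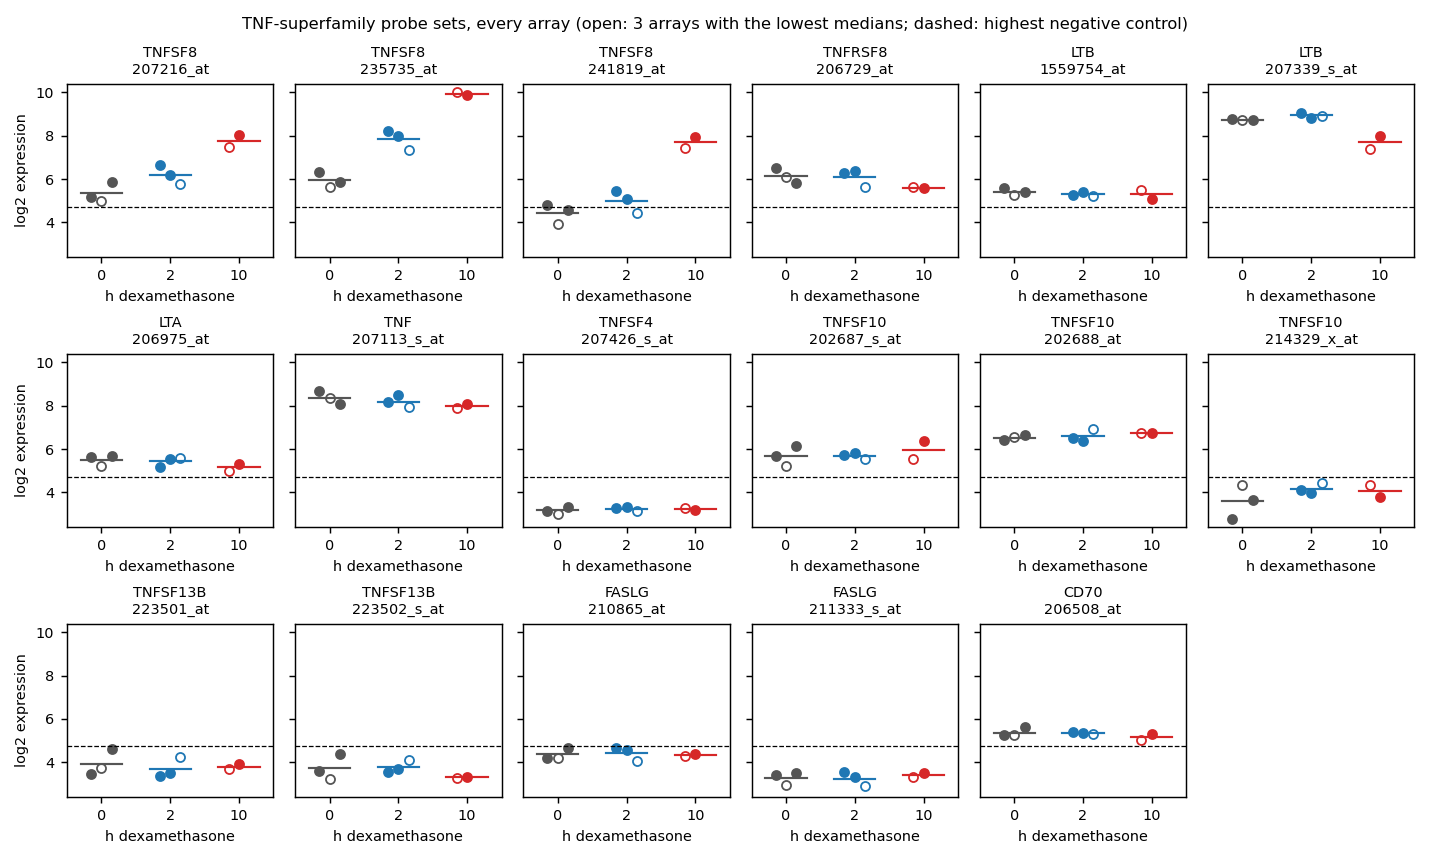
log2 expression (vertical axis) of all 17 member probe sets on each of the 8 arrays, by hours in dexamethasone (horizontal axis). Points are arrays, open for the 3 with the lowest medians, short bars are means and the dashed line is the highest negative control value, 4.73. The 3 TNFSF8 probe sets are highest at 10 h, and LTB probe set 207339_s_at is lowest there.

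TNFSF8 encodes CD30 ligand, a membrane protein of activated T cells. It was the member with the largest differences, and all 3 of its probe sets were higher on both arrays at 10 h than on any array at 0 h or 2 h. Probe set 235735_at read 6.32, 5.64 and 5.87 on the 3 untreated arrays, 8.24, 7.97 and 7.34 at 2 h and 10.01 and 9.89 at 10 h. The 3 times did not overlap on this probe set, and the levels climbed in the order of time. It rose by 1.90 ± 0.24 (SE, n = 3 and 3) at 2 h, or 3.74-fold with a 95% interval of 2.64 to 5.30. At 10 h it stood 4.01 ± 0.26 (SE, n = 3 and 2) above 0 h, or 16.1-fold with an interval of 10.9 to 23.8.

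The other TNFSF8 probe sets gave the same direction with different sizes. Probe set 207216_at, annotated to the RefSeq mRNA, read 5.16, 5.0 and 5.88 at 0 h, 6.66, 6.17 and 5.75 at 2 h, and 7.49 and 8.05 at 10 h. Its 0 h and 2 h arrays overlapped, because 2 h replicate 3 lay below 0 h replicate 3. Its difference was 0.84 ± 0.26 (SE) at 2 h and 2.43 ± 0.30 (SE) at 10 h, or 5.37-fold (95% interval 3.47 to 8.31). Probe set 241819_at read 4.82, 3.94 and 4.55 at 0 h, 5.45, 5.07 and 4.41 at 2 h, and 7.45 and 7.92 at 10 h. It was near the negative controls before treatment, 5 of its 8 arrays exceeded 4.73, and its 2 h difference of 0.54 ± 0.27 (SE) had an interval from −0.04 to 1.11. By 10 h the measured values stood 3.25 ± 0.30 (SE) above 0 h. The measured values gave a 95% interval of 6.11 to 14.9-fold. Because 2 of its 3 untreated arrays lay below 4.73, the size was also taken with those arrays set to 4.73. The 10 h mean was then 7.62-fold higher, an estimate without an interval and not a minimum. On the log2 scale the 2 h difference was thus 47.5% of the 10 h difference for 235735_at and 34.8% for 207216_at; no such share is given for 241819_at, whose untreated level was at background. Between 2 h and 10 h the 3 probe sets gained 2.11 ± 0.26, 1.58 ± 0.30 and 2.71 ± 0.30 (SE) in the same order.

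Across the 8 arrays the 3 TNFSF8 probe sets ran together, with Pearson correlations of 0.923 to 0.949 between pairs, a description over arrays that share the 3 times. The 10 h difference was present among the 3 arrays with the lowest medians, where there is 1 array a time (4.37, 2.5 and 3.52 for 235735_at, 207216_at and 241819_at). It was also present among the other 5 (3.8, 2.53 and 3.24), where 10 h replicate 2 is the only array at 10 h. At 2 h the same values were 1.70, 0.76 and 0.47 among the 3 and 2.01, 0.89 and 0.57 among the 5. The call at 2 h rested on 235735_at alone. It was lost without 0 h replicate 2, where the difference was 1.75, without 0 h replicate 3 (1.87), without 2 h replicate 2 (1.84), without the 3 arrays with the lowest medians, and when the probe sets of a gene were averaged (1.10). Without the 3 arrays with the lowest medians, 207216_at also lost its call at 10 h against 0 h, at a difference of 2.53. The call of 235735_at at 10 h against 2 h was lost without them (1.79), without 10 h replicate 1 (2.05) and without 10 h replicate 2 (2.17).

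TNFRSF8 encodes CD30, the receptor of that ligand, and is found on activated lymphocytes and some lymphomas. Its only probe set, 206729_at, read 6.52, 6.08 and 5.83 at 0 h, 6.30, 6.36 and 5.64 at 2 h, and 5.62 and 5.59 at 10 h. Both 10 h arrays lay below every earlier array, though barely below 2 h replicate 3. The difference was −0.04 ± 0.23 (SE) at 2 h and −0.54 ± 0.25 (SE) at 10 h, and the 10 h value was not called. The ligand and its receptor therefore had differences of opposite sign at 10 h, the receptor's being the smaller.

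**Figure D2:**
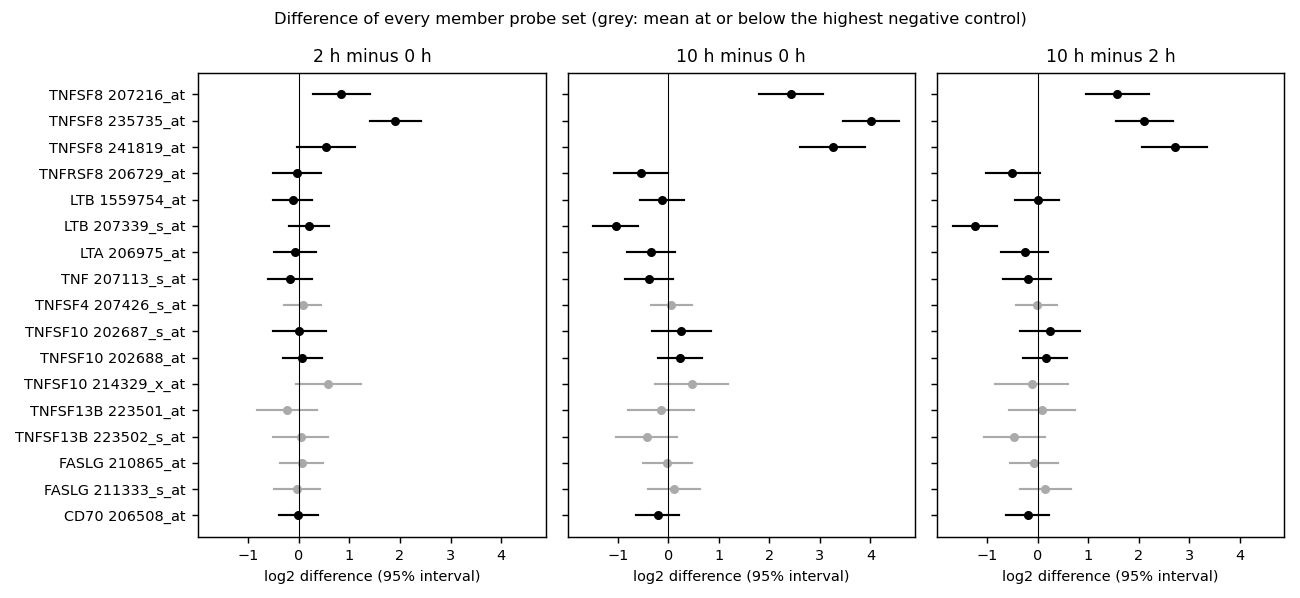
log2 difference (horizontal axis) of each member probe set in the 3 comparisons, with its 95% interval from the fit over all 8 arrays; grey marks probe sets with a mean at or below the highest negative control. Intervals of all 3 TNFSF8 probe sets lie above 0 at 10 h against 0 h, that of LTB 207339_s_at runs from −1.48 to −0.60, and most others span 0.

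LTB encodes lymphotoxin beta, which holds lymphotoxin alpha at the cell surface in a heterotrimer that signals through the lymphotoxin beta receptor and the non-canonical NF-κB pathway. Its probe set 207339_s_at, annotated to the RefSeq mRNA, read 8.76, 8.75 and 8.71 at 0 h, 9.07, 8.84 and 8.91 at 2 h, and 7.41 and 7.99 at 10 h. The untreated arrays were nearly equal, the 2 h arrays stood slightly above them, and both 10 h arrays were below all 6 others. The 2 h difference was 0.20 ± 0.19 (SE) and not called, although the arrays of 0 h and 2 h did not overlap. At 10 h the level was 1.04 below 0 h (SE 0.21, 95% interval of the difference −1.48 to −0.60), which leaves 48.7% of the untreated level. That difference was not called when adjusted over all probe sets. Against 2 h, LTB fell by 1.24 (SE 0.21), to 42.4% of the 2 h level. It was called there.

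The lower LTB level at 10 h was seen on that probe set only and was uneven between the arrays at 10 h. Probe set 1559754_at, annotated to another GenBank record, read 5.61, 5.25 and 5.39 at 0 h, 5.26, 5.40 and 5.22 at 2 h, and 5.49 and 5.09 at 10 h. Its times overlapped throughout, with −0.13 ± 0.20 (SE) at 10 h, and across the 8 arrays it correlated with 207339_s_at at −0.079. With 1 array at 10 h, 207339_s_at differed from 0 h by −1.33 among the 3 arrays with the lowest medians and by −0.75 among the other 5. Its 10 h difference was −1.32 without 10 h replicate 2 and −0.75 without 10 h replicate 1, again with 1 array left. Against 0 h it was called under 7 of 19 other settings, among them median centring and the brightest probe set of each gene. Against 2 h it was called under 10 of 19, and it lost that call under the others. The difference was smaller with averaged probe sets (−0.62), without the 3 arrays with the lowest medians (−0.96) and without 10 h replicate 1 (−0.95). It was of about the reported size with the replicate number as a block (−1.25), without 0 h replicate 1 (−1.24) and without 2 h replicate 1, 2 or 3 (−1.17, −1.29 and −1.25), and larger without 10 h replicate 2 (−1.53).

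**Figure D3:**
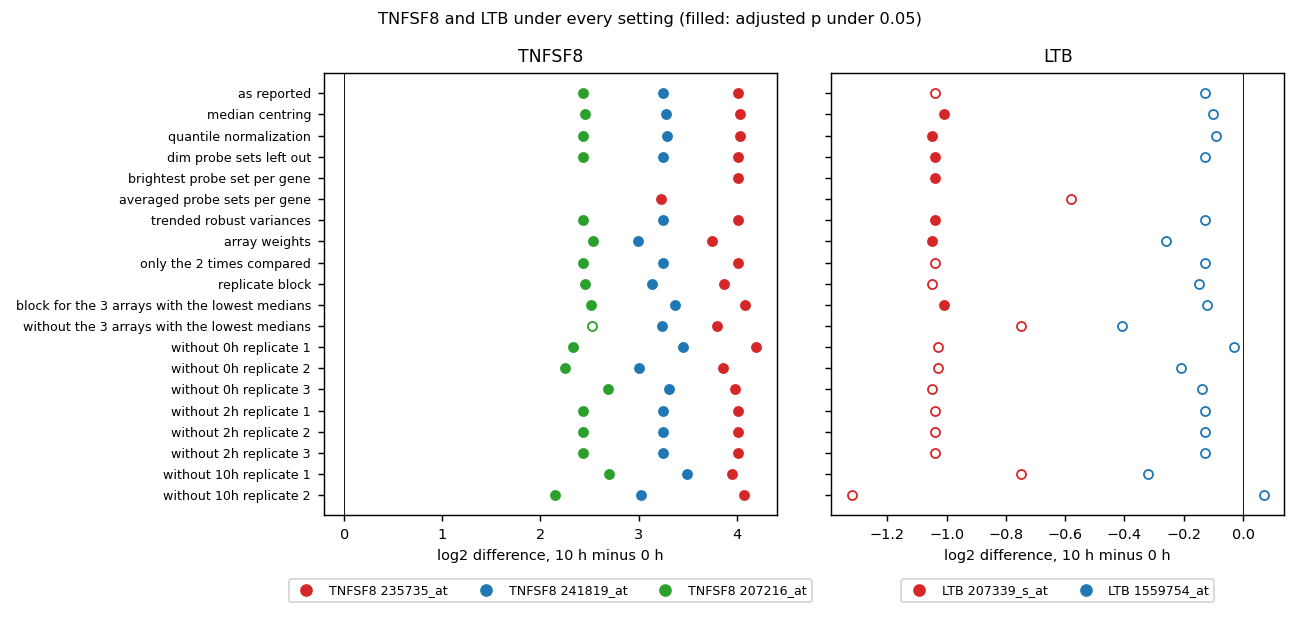
log2 difference at 10 h against 0 h (horizontal axes, on different scales) of the TNFSF8 and LTB probe sets under the reported setting and 19 others (vertical axis); filled points had an adjusted p under 0.05, and the averaged value of a gene is drawn in the colour of its brightest probe set. TNFSF8 stays between 2.15 and 4.2 in every setting, and LTB 207339_s_at between −1.32 and −0.58.

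LTB lies beside LTA and TNF in the major histocompatibility complex on chromosome 6, and these 3 follow each other with no other protein-coding gene between them in the RefSeq table (GRCh38.p14). The 250 bases before the start of LTB (chr6:31582426-31582675, minus strand) and of TNF (chr6:31575315-31575564, plus strand) are shown because the pair are neighbours. For LTB the first listed of 2 starts in that table was used. Whether LTB and TNF differed from each other at 10 h was not tested. Capitals mark a match to the NF-κB motif, searched on both strands along with the glucocorticoid receptor half-site AGAACA and the AP-1 motif TGANTCA.
LTB: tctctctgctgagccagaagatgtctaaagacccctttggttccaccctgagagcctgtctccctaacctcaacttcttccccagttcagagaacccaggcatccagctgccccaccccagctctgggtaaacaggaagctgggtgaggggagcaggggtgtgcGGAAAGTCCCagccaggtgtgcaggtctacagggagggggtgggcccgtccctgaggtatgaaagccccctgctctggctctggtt
TNF: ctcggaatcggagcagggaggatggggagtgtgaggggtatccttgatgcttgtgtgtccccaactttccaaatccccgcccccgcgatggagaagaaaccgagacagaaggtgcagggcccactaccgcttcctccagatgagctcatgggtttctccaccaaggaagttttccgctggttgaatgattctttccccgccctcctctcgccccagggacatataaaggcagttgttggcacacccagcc
The LTB window held 1 match to the NF-κB motif, 86 to 77 bases before the start, and neither window held the other motifs. Of 27305 promoters of the same length, 9.57% held the NF-κB motif, 12.4% the half-site and 6.6% the AP-1 motif. Of the other members in the table (TNFRSF8, LTA, TNFSF4, TNFSF10, TNFSF13B and FASLG), only TNFSF4 held a match, 1 half-site. TNFSF8 and CD70 had no promoter sequence there and were not searched. A match is a string of letters and not a measured binding site. Only exact matches to these patterns were marked, so a site that departs from its pattern would be missed. A window without capitals need not lack such sites, and bases further from the start were not searched. Whether any match bears on the levels was not tested.

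TNF and LTA, whose proteins signal through the TNF receptors, were lower at 10 h by less than LTB 207339_s_at. TNF probe set 207113_s_at read 8.67, 8.35 and 8.10 at 0 h, 8.16, 8.48 and 7.95 at 2 h, and 7.89 and 8.10 at 10 h. Its 10 h arrays lay at or just under the lowest untreated array, which 10 h replicate 2 nearly met, and the difference was −0.38 ± 0.22 (SE; 95% interval −0.86 to 0.09). LTA probe set 206975_at read 5.62, 5.21 and 5.68 at 0 h, 5.16, 5.53 and 5.58 at 2 h, and 5.0 and 5.33 at 10 h. Its times overlapped, with a 10 h difference of −0.34 ± 0.22 (SE; interval −0.81 to 0.13). Neither was called at any time, and over 19 other settings the 10 h difference ran from −0.58 to −0.23 for TNF and from −0.50 to −0.18 for LTA. The interval of TNF at 10 h reaches down to 0.551 of the untreated level.

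Genes next to these loci gave no call at 10 h, though DDX39B and TEX53 had no single-symbol probe set and could give none. Around the run of LTA, TNF and LTB, the brightest probe sets of ATP6V1G2, NFKBIL1, LST1, NCR3 and AIF1 had 10 h differences of 0.12, 0.18, −0.15, −0.04 and 0.30, each with an adjusted p of 1.00 (limma). TNFSF8 lies on chromosome 9 between TNFSF15, another TNF ligand, and TNC, an extracellular matrix protein. TNFSF15 had −0.26 ± 0.24 (SE) and TNC −0.11 ± 0.20 (SE) at 10 h, both at levels below the highest negative control. Further out, TEX48, above the negative controls, had −0.42 ± 0.23 (SE), PAPPA 0.0 and ASTN2 −0.01.

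The ligands that can trigger apoptosis through death receptors showed no called difference. TNFSF10 encodes TRAIL, which binds the TRAIL death receptors. Its probe set 202688_at read 6.40, 6.55 and 6.64 at 0 h, 6.5, 6.39 and 6.91 at 2 h, and 6.75 and 6.76 at 10 h. The 10 h arrays lay above all untreated arrays but inside the range of 2 h, with a difference of 0.23 ± 0.21 (SE; interval −0.21 to 0.67). Probe set 202687_s_at had 0.26 ± 0.27 (SE) at 10 h, which 1 array set the sign of: it was 0.66 without 10 h replicate 1 and −0.14 without 10 h replicate 2. Probe set 214329_x_at stayed under 4.73 on all 8 arrays, between 2.78 and 4.45. FASLG, the Fas ligand used by cytotoxic T cells, was likewise under 4.73 on all arrays of both its probe sets, which ranged from 4.07 to 4.67 and from 2.89 to 3.55. Its 10 h differences were −0.02 ± 0.22 and 0.11 ± 0.24 (SE), and at such levels a loss could not be told from background.

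Among the remaining ligands, which co-stimulate T and B cells, only CD70 was above the negative controls. CD70, which binds CD27, read 5.25, 5.24 and 5.63 at 0 h, 5.41, 5.36 and 5.32 at 2 h, and 5.02 and 5.31 at 10 h. Its times 0 h and 10 h overlapped, and the difference was −0.21 ± 0.20 (SE; interval −0.64 to 0.22). TNFSF4, the OX40 ligand, stayed between 3.01 and 3.34 on all arrays, the narrowest range of any member, with a 10 h difference of 0.06 ± 0.19 (SE). TNFSF13B encodes BAFF, a survival factor for B cells made mainly by myeloid cells. Its probe sets ran from 3.39 to 4.6 and from 3.22 to 4.40, with 10 h differences of −0.14 ± 0.31 and −0.43 ± 0.28 (SE). In both, 0 h replicate 3 was the highest of the 8 arrays.

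Counted over the 17 probe sets, 1 was called at 2 h, higher, where 0.00916% of all probe sets were. At 10 h against 0 h, 3 were called higher and none lower, where 0.251% of all probe sets were called, 0.245% higher and 0.00549% lower; these and the call at 2 h were all of TNFSF8. At 10 h against 2 h, 2 were higher (TNFSF8) and 1 lower (LTB), where 0.108% of all probe sets were called, 0.106% higher and 0.00183% lower. At an unadjusted p below 0.05, 1.1%, 2.68% and 2.53% of all probe sets passed in the 3 comparisons in the same order. Arrays did not overlap at 2 h against 0 h for 2 members, both higher (2.77% of all probe sets higher, 1.37% lower, 4.13% in either direction). At 10 h against 0 h this held for 4 higher and 3 lower (5.92%, 6.19% and 12.1% of all probe sets), and at 10 h against 2 h for 3 higher and 4 lower (5.0%, 8.35% and 13.4%). Because the members were chosen with these comparisons known, nothing is read from those counts. The median 10 h difference of the 17 was −0.02, against −0.03 over all probe sets, with 8 positive and 9 negative. Without the TNFSF8 and LTB probe sets, the other 12 ran from −0.54 to 0.47 at 10 h and from −0.23 to 0.58 at 2 h, and none was called.

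**Figure D4:**
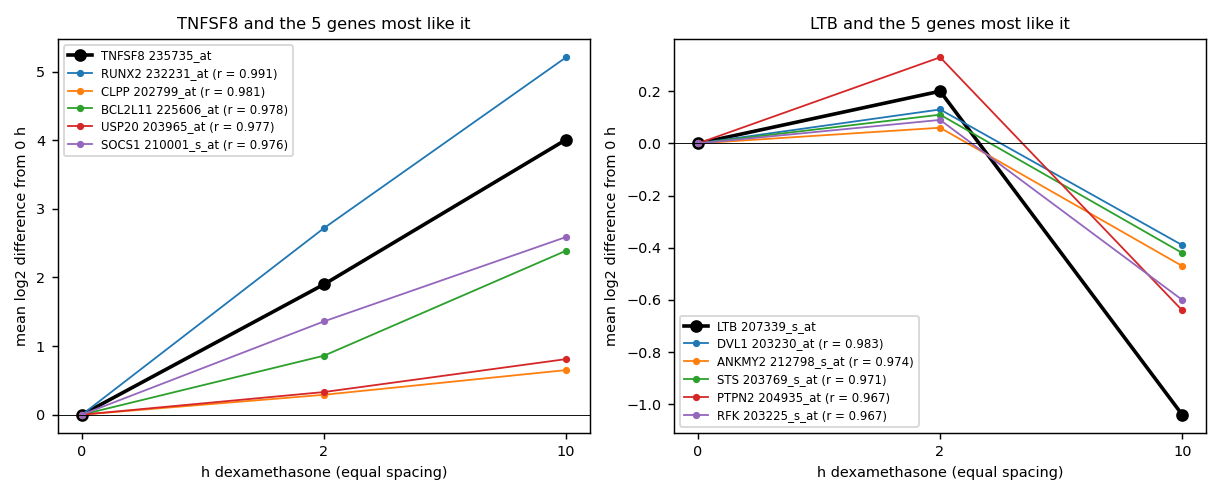
Mean log2 difference from 0 h (vertical axes, on different scales) at 0, 2 and 10 h, spaced evenly (horizontal axis), for the brightest TNFSF8 and LTB probe sets and the 5 genes whose values correlated best with each over the 8 arrays. Genes like TNFSF8 climb at both times, and genes like LTB stand slightly above 0 at 2 h and below it at 10 h. These courses follow from how the genes were picked.

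The genes whose log2 values ran most like TNFSF8 235735_at over the 8 arrays, among 23645 single-symbol probe sets above the negative controls, were RUNX2, CLPP, BCL2L11, USP20 and SOCS1. Their Pearson correlations were 0.991, 0.981, 0.978, 0.977 and 0.976, which measure shape and not size. The arrays share the 3 times, and these genes, like those for LTB below, were picked by such correlations. Their similar courses thus follow from the choice. RUNX2, a Runt-family transcription factor, differed by 5.21 at 10 h, SOCS1, an inhibitor of cytokine signalling, by 2.59, and BCL2L11, the pro-apoptotic protein BIM, by 2.39. CLPP, a mitochondrial protease, and USP20, a deubiquitinase, followed the same course at 0.65 and 0.81. Most like LTB 207339_s_at were DVL1, ANKMY2, STS, PTPN2 and RFK, at 0.983 to 0.967. All 5 were slightly higher at 2 h, by 0.06 to 0.33, and lower at 10 h, by differences of −0.64 to −0.39, so none was lower by as much as LTB. PTPN2, a phosphatase that dampens JAK-STAT signalling, was the furthest below 0 h.

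The rest of the pathway was followed through 6 lists, chosen with earlier results of these data known, so their calls only describe these arrays. The lists held 164 probe sets of 65 genes. In limma, none was called at 2 h (1 higher and none lower at an unadjusted p below 0.05, beside 371 higher and 228 lower of all 54613), and 1 was called at 10 h, higher, where 0.251% of all probe sets were called (7 higher and none lower unadjusted, beside 958 higher and 503 lower of all 54613 probe sets). At 10 h against 2 h none was called (7 higher and none lower unadjusted, beside 605 higher and 774 lower of all). Their median 10 h difference was −0.01, and 79 were positive and 85 negative.

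Receptors of the member ligands had 14 of 15 listed genes measured by 31 probe sets, with 10 h differences between −0.28 and 0.22. TNFRSF1A, the main receptor of soluble TNF, had −0.22 ± 0.20 (SE; adjusted p = 1.00) at 10 h from 8.22 ± 0.26 (SD, n = 3), and FAS, the receptor of Fas ligand, −0.22 ± 0.23 (SE; adjusted p = 1.00). Among the 12 other TNF receptors, with 26 probe sets, TNFRSF21 had 0.07 ± 0.22 and CD40 0.19 ± 0.19 (SE). Of 9 other ligands listed, 7 were measured by 15 probe sets, while CD40LG and TNFSF12 had no single-symbol probe set. Those 15 probe sets lay between −0.42 and 0.30 at 10 h, and 2 of them were above the negative controls on average. ADAM10 and ADAM17, proteases that cut several of these proteins from the membrane, had 0.20 ± 0.21 and −0.10 ± 0.20 (SE).

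Downstream of the receptors, 15 of 18 listed adaptor and death-domain genes were measured. Their 53 probe sets had none called at 10 h, where 0.251% of all probe sets were called. TRAF2, RIPK1 and BIRC3 had no single-symbol probe set and were not analysed. At an unadjusted p below 0.05 in limma, 6 probe sets were higher and none lower, beside 958 higher and 503 lower of all 54613. Those 6 came from 3 genes. They were both probe sets of CASP8, the initiator caspase of death receptors, with a mean above the negative controls (0.80 and 0.71), 3 of CFLAR, its inhibitor FLIP (0.52, 0.51 and 0.67), and 1 of TRAF3IP2, an adaptor of interleukin 17 receptors (0.86). CFLAR was not uniform: among its probe sets above the negative controls that did not pass were 208485_x_at (0.11) and 209508_x_at (0.15). TRAF3, which restrains non-canonical NF-κB signalling, had 0.18 ± 0.21, and BIRC2, a ubiquitin ligase of the receptor complex, 0.31 ± 0.21 (SE; both adjusted p = 1.00). Of 15 NF-κB genes with 33 probe sets, 1 probe set of NFKBIA, the inhibitor that holds NF-κB in the cytoplasm, was called. It read 8.81, 8.91 and 8.01 at 0 h, 9.32, 9.65 and 9.05 at 2 h, and 9.99 and 9.87 at 10 h. NFKBIA rose by 1.35 ± 0.26 (SE; limma adjusted p = 0.0467) at 10 h on this probe set, and its other probe set, 231699_at, had −0.39. The call was kept under 9 of 19 other settings and lost without 0 h replicate 1, 0 h replicate 3 or either 10 h array, with median centring, quantile normalization or averaged probe sets, with the replicate block, with a block for the 3 low-median arrays and without them. Under median centring, quantile normalization and the block for those arrays, the called probe set of these lists was instead that of TRAF3IP2, at 0.88, 0.85 and 0.90.

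**Figure D5:**
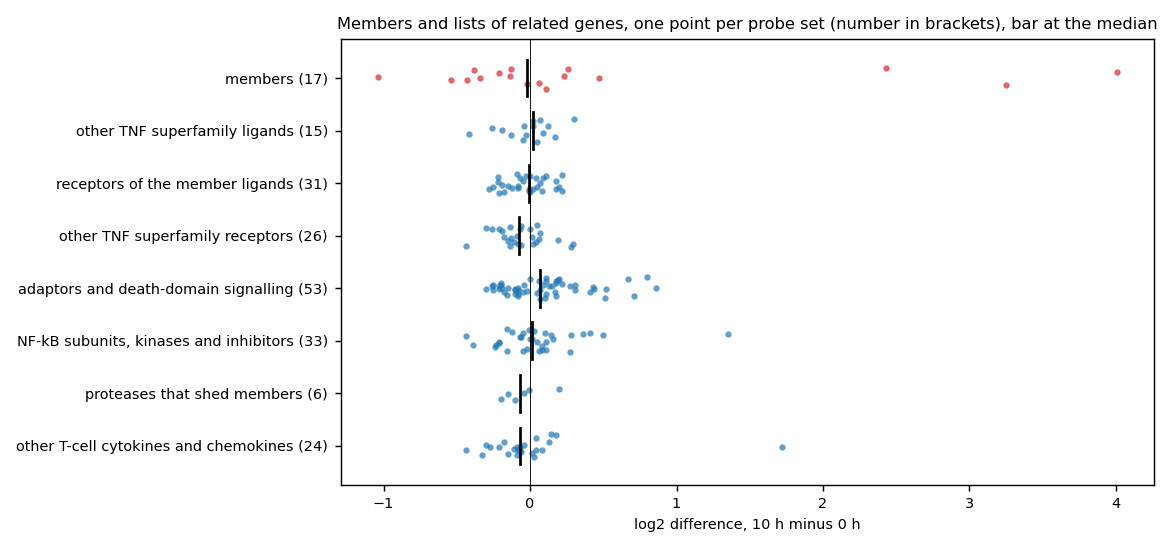
log2 difference at 10 h against 0 h (horizontal axis) of the 17 member probe sets and of the probe sets of 7 lists of related genes (rows), 1 point per probe set and a bar at each median. The 3 TNFSF8 points stand to the right and LTB 207339_s_at to the left of the other members, while medians of the lists lie between −0.08 and 0.07.

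Other cytokines and chemokines of T cells were set beside the TNF ligands as a list of 16 genes, 14 of them measured by 24 probe sets. IL10, an anti-inflammatory cytokine, was the only one called, at 10 h against 0 h. There 0.251% of all probe sets were called, 0.245% higher. The list was chosen with earlier results of these data known, so the call of IL10 only describes these arrays. Its probe set read 4.29, 4.05 and 4.58 at 0 h, 5.24, 4.90 and 4.83 at 2 h, and 6.25 and 5.79 at 10 h. The 3 times did not overlap, and the untreated arrays all lay below the highest negative control. IL10 rose at 10 h (limma adjusted p = 0.00168), with measured values 1.72 ± 0.23 (SE) above 0 h. With the untreated arrays set to 4.73, the 10 h mean was 2.45-fold higher, an estimate without an interval and not a minimum. The call was kept under 17 of 19 other settings and lost without 10 h replicate 1 and without the 3 arrays with the lowest medians. At 2 h its difference was 0.69 ± 0.20 (SE; limma adjusted p = 1.00).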

How the data were processed

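Deposited values were log2 expression per probe set, made with RMA per the submitters' processing notes; a version was not given in the sources used here, nor whether all arrays were processed together. The method corrects background, quantile-normalizes and summarises probes. All 8 value columns were mapped to samples, and no pair of arrays shared more than 0.269% identical values. Of 54675 probe sets, 62 controls were left out, and 41091 of the rest had a single symbol in the platform annotation. Promoters were matched by symbol to RefSeq (GRCh38.p14), 8 of 10 members being found, all but TNFSF8 and CD70.

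All 54613 probe sets entered a single limma fit (version 3.58.1, R 4.3.3) with a mean per time over all arrays (5 residual degrees of freedom), with no filter. Calls used a two-sided Benjamini-Hochberg adjusted p below 0.05 over all probe sets; SE and 95% intervals are the moderated ones. The script was tested on simulated data. The number of arrays limits the precision. Members, lists, alternatives and the naming rule were chosen with earlier results of these data known. The rule named every member, up to 4 called genes per list or else its 2 brightest, and the 5 genes most like TNFSF8 and LTB. TRAF3IP2, CASP8 and CFLAR were named after their values were seen. The alternatives were 2 normalizations, a filter on dim probe sets, 1 probe set per gene, averaging, variance models, array weights, blocks and arrays left out.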

Additional observations from a re-analysis of the deposited data

How the results depend on the processing

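Of 909 values of the members under other settings, 888 moved by less than 1 SD of replicates and 21 by more, and no called difference changed sign. Many of the 888 could not move. Variance models, the filter on dim probe sets, the brightest probe set and leaving out an array of a time not compared all keep a difference as it was. The count of 888 is thus no measure of stability. Averaging probe sets, which counts genes instead, gave 72 calls at 10 h against 0 h in place of 137, 27 at 10 h against 2 h in place of 59 and 1 at 2 h in place of 5; members then had 1, 1 and 0, and the pathway lists 0 at 10 h. The brightest probe set per gene gave 70 and 33 in the comparisons with 10 h. Without the 3 arrays with the lowest medians there were 34, 1 and 1 calls, members had 2 at 10 h against 0 h in place of 3, 0 at 10 h against 2 h and 0 at 2 h, and the lists 0 at 10 h. A block for those arrays gave 215 and 92 calls in the comparisons with 10 h, trended robust variances 92 at 10 h against 2 h and 10 at 2 h, and array weights 14 at 2 h. Leaving out 1 array at a time gave 70 to 147 calls at 10 h against 0 h (70 without either 10 h array), 14 to 70 at 10 h against 2 h (14 and 20 without a 10 h array, 38 without 2 h replicate 2) and 4 to 5 at 2 h; members ranged from 3 to 3, 1 to 4 and 0 to 1, and the lists from 0 to 1 at 10 h. The labels do not say whether equal replicate numbers mark paired cultures. Deviations of same-numbered arrays from the mean of their time correlated at 0.280, −0.158 and −0.142 between 0 h and 2 h. The values were −0.24 and −0.279 between 0 h and 10 h, and −0.236 and −0.067 between 2 h and 10 h. Such deviations come from means of 2 or 3 arrays, so they cannot settle whether arrays were paired. With the replicate block there were 108, 49 and 6 calls, members had 3, 2 and 1 and the lists 0 at 10 h. No array scaling moved the median of all probe sets by over 0.1. For members at or below the highest negative control, signal over background limits what a lower value can show.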
